A study of Arabidopsis thaliana with 6 samples.

Results

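The core histone genes of Arabidopsis thaliana were compared between root tips of the scl28-3 mutant and of wild type. The set was a list of 39 genes, with 13 for H2A (HTA1 to HTA13), 10 for H2B (HTB1 to HTB7 and HTB9 to HTB11), 8 for H3 (HTR1 to HTR5, HTR8, HTR9 and HTR13) and 8 for H4. They were found in the expression tables by gene ID. Of the 39 genes, 38 had a row among the 21125 genes listed, and HTA4 was not analysed here. All 38 also passed the filter on low reads, which kept 17879 genes for testing. There were 3 scl28-3 libraries and 3 wild-type libraries, all of them RNA-seq of total RNA from root tips about 2 mm long. Plants of both groups were 6 days old and were grown on plates with Murashige and Skoog medium in continuous light at 21 °C, and each library pooled about 300 tips. SCL28 is a GRAS-family transcription factor, and the lesion in scl28-3 and the accession of the wild type are not given in the sources used here. Nothing in the labels says whether the libraries of a genotype came from separate plantings, so p-values measure the spread between these libraries.

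Histones H2A, H2B, H3 and H4 form the protein core around which DNA is wound in the nucleosome. Canonical H2A, H3.1 and H4 are made mainly in S phase, when dividing cells must package newly copied DNA, so their transcripts are abundant in meristems. Variant histones replace them at particular places or times. H2A.X takes part in DNA damage signalling, H2A.W marks heterochromatin in plants, H2A.Z sits at gene bodies and promoters, and H3.3 is deposited at transcribed genes outside replication. By these roles the list held 17 replication-dependent genes (canonical H2A, H3.1 and H4), 12 variant genes (H2A.X, H2A.W, H2A.Z and H3.3) and the 10 H2B genes, which were kept apart.

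Plant histone promoters are known for short shared elements, and the histone classes carried them in different numbers. The 250 bases before each annotated gene start in the TAIR10.1 reference genome were searched on both strands. These windows were not cut at neighbouring genes. Most of the HTR4 window lies within HTR5, which ends 42 bases before HTR4 on the same strand. The hexamer ACGTCA, an element that bZIP factors bind in plant histone promoters, lay in 8 of 10 H2B promoters, in 2 of 5 H3.1 and in 1 of 3 H3.3 promoters, against 7.69% of all 27443 protein-coding promoters, and in none of the H2A and H4 promoters. The stretches around it are shown for the 3 H2B genes whose levels did not overlap between genotypes and for HTB5 and HTB1, chosen after seeing the sequences for their close match to the octamer beside it, with the hexamer in capitals.
HTB6: gatggatgacACGTCAtcgatccgca
HTB11: aatatattccACGTCAtcaatcctcg
HTB2: aaaagtaaccACGTCAgctatccacg
HTB5: tatttaagccACGTCAtcgatcctcg
HTB1: agaaatatacACGTCAatgatcctcg
The stretch of HTB6 is chr3:19889191-19889216 on the plus strand. That of HTB11 is chr3:16914204-16914229 on the minus strand, that of HTB2 is chr5:7652894-7652919 on the minus strand, that of HTB5 is chr2:15736669-15736694 on the plus strand, and that of HTB1 is chr1:2412897-2412922 on the plus strand. Among the 8 H2B promoters with the hexamer, the best match to the octamer beside it (either strand) had 1 mismatch in HTB6, HTB5 and HTB1, 2 in HTB11 and HTB2, 3 in HTB9 and HTB10 and 4 in HTB3.

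The octamer CGCGGATC, an element tied to S-phase expression of plant histone genes, was read as CGCGGATC or its reverse complement GATCCGCG. It lay in 9 of the 39 histone promoters and in 37 of 27443 promoters (0.135%), so histone genes made up 24.3% of all promoters with it. The 9 genes were HTA6, HTA10, HTA13, HTR1, HTR2, HTR5, HTR9, AT1G07660 and AT5G59690, and it lay in 0 of 10 H2B, 0 of 2 H2A.X and 0 of 4 H2A.Z promoters. The stretches are shown for the gene with the highest CPM per kb, averaged over all 6 libraries, in 4 classes that carry it, and for the H3.3 gene HTR5, with the octamer in capitals.
HTR1: ttagacgtgaCGCGGATCactaaaatta
AT5G59690: actgccatcaCGCGGATCactaatatga
HTA6: tacatagtcaCGCGGATCgtgctttatt
HTA10: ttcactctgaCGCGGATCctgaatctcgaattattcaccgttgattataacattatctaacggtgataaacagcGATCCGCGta
HTR5: ttatttcagcGATCCGCGacggtttgt
The stretch of HTR1 is chr5:26120690-26120717 on the minus strand and that of AT5G59690, an H4 gene, is chr5:24051393-24051420 on the plus strand. That of HTA6 is chr5:24116319-24116346 on the minus strand, that of HTA10 is chr1:18926727-18926810 on the plus strand, and that of HTR5 is chr4:18558946-18558972 on the minus strand. HTA10 and HTR2 carried 2 octamers each. With 1 mismatch allowed, a search chosen after seeing the data, the octamer lay in 20 of 39 histone promoters (51.3%) and in 2.85% of all promoters, and 5 of 10 H2B promoters then held it.

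Other elements were spread differently. The letters AACGG, the core of the MSA element found in promoters of genes expressed in G2 and M phase, lay in 21 of 39 histone promoters (53.8%), against 20.6% of all promoters. By class they lay in 4 of 5 H3.1, 5 of 8 H4 and 6 of 10 H2B promoters, and in 0 of 2 H2A.X promoters. An E2F motif (TTTCCCGC, TTTGGCGC or TTTCGCGC) lay in 2 histone promoters, those of the H4 genes AT3G45930 and AT3G46320, against 1.13% of all promoters. The nonamer CATCCAACG, searched only as an exact match, lay in none of the 39 and in 0.149% of all promoters. In HTA6, HTA13 and HTR13, for example, the letters AACGG lie in AATCCAACGG, which holds the nonamer with 1 mismatch. Near matches of this kind were not counted over the list. A match to AACGG therefore need not be an MSA element. These matches describe letters in one window and do not show that a factor binds there.

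**Figure D1:**
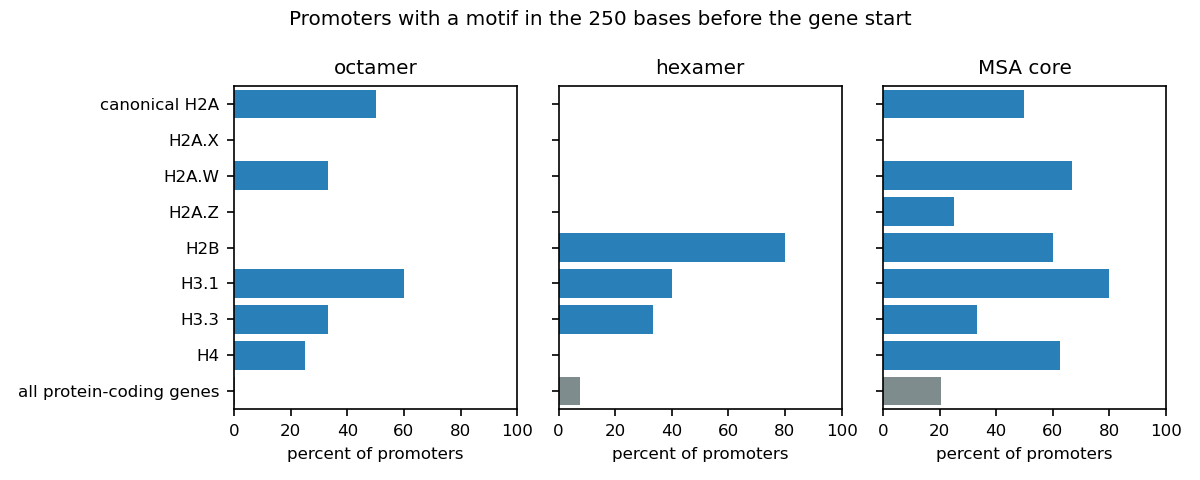
Percent of promoters (horizontal axis) that hold the octamer, the hexamer or the MSA core in the 250 bases before the gene start, for the 8 histone classes (blue bars) and all protein-coding genes (grey bar). The hexamer stands out in H2B, with 8 of 10 promoters, while the octamer lies in 3 of 5 H3.1 and 0 of 10 H2B promoters.

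Library depth, recovered from the deposited CPM (a gene's reads relative to the total of its library), was 13997208 to 16781230 reads in the scl28-3 libraries and 10400345 to 11573322 reads in the wild-type libraries, so 3 reads were worth 0.179 to 0.288 CPM. These limits cover counting error only. SCL28 itself (AT1G63100, chromosome 1, 23399112 to 23402176, minus strand) had 17.72, 14.92 and 13.65 CPM in scl28-3, against 44.5, 42.59 and 42.38 CPM in wild type. It fell in the mutant by 1.48 ± 0.12 (SE) on the log2 scale, with a limma adjusted p = 0.0022, and its transcript remained detectable. Leaf photosynthesis genes summed to 15.3 to 28.5 CPM in scl28-3 and 14.7 to 25.3 CPM in wild type, and the 7 root meristem markers to 199 to 217 and 178 to 232 CPM. In bulk tissue fewer cells of a type and less RNA per cell cannot be told apart.

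No core histone gene was called in the main limma fit, by edgeR or by DESeq2, and most were slightly lower in scl28-3. A limma fit with a replicate block by sample number called 2 lower, HTA3 and HTB6, against 0.224% of all genes. No pairing by number could be shown. Fold changes here are on the scale log2(CPM + 0.5) after TMM scaling, and a gene was called at a limma p under 0.05 after Benjamini-Hochberg adjustment over all 17879 genes. In the main limma fit 0 of the 38 genes were called lower, against 13 of all genes (0.0727%). None were called higher, against none of all genes (0.0%). The lowest adjusted p of a histone gene in that fit was 0.300. The count was also 0 with edgeR's quasi-likelihood test on the recovered reads, which called 0.0783% of all genes, and with DESeq2, which called 0.101%. Unadjusted and without the block, 4 histone genes had p under 0.05 with each tool. The shares of all genes were 4.37% with limma and with edgeR and 2.7% with DESeq2. In the main limma fit these were HTB6, HTA3, AT3G46320 and HTB3, all lower. That is 4 of 38 against 2.17% of all genes, and 0 were higher, against 2.2%. That count depended on the libraries, being 14 without wild-type library 1, where 4.81% of all genes were lower at that p, and 7 without scl28-3 library 1, where 2.2% were, and 3 or 4 without any of the others.

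Most of the small differences had the same sign. The log2 fold change was below 0 for 34 of 38 histone genes, against 47.9% of all tested genes, and the median was -0.14, against 0.01 for all tested genes. Among genes averaging at least 30 CPM, a limit chosen after seeing the data, 31 of 33 histone genes were below 0, against 52.1% of 6546 genes, with medians of -0.14 for histone genes and -0.005 for all. The count below 0 was 28 without wild-type library 2 and 36 without wild-type library 1, and the median ran from -0.18 to -0.08 when each library was left out. The size was small throughout. The 95% interval of the fold change did not reach a halving for 36 of the 38 genes and did not reach a doubling for any. All 38 genes were measured in the same 6 libraries, so their directions are not independent of each other.

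In deposited CPM the genotypes did not overlap for 7 of the 38 genes, all lower in scl28-3, against 4.22% of all tested genes, and for 0 genes in the other direction, against 6.19%. These 7 were HTA3, HTB2, HTB6, HTB11, HTR3, HIS4 and AT3G46320. None of the 7 promoters held the exact octamer and 4 held the hexamer, against 9 and 11 of all 38 genes. Of the 4 genes with a log2 fold change above 0, 3 held the octamer, all except HTA12. These genes were HTA12 (0.44 ± 0.21, SE), HTR5 (0.14 ± 0.13), HTA13 (0.02 ± 0.12) and AT1G07660 (0.01 ± 0.11), named after their values were seen. The 3 with the octamer had values close to or below their standard errors, so their sign is uncertain. Of the 9 genes with the octamer, 6 were below 0. A link between octamer and direction was not tested. The 9 genes with the octamer had a median log2 fold change of -0.12, the 11 with the hexamer -0.18 and the 19 with neither -0.12. Since 8 of the 11 hexamer genes encode H2B, element and class cannot be told apart.

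**Figure D2:**
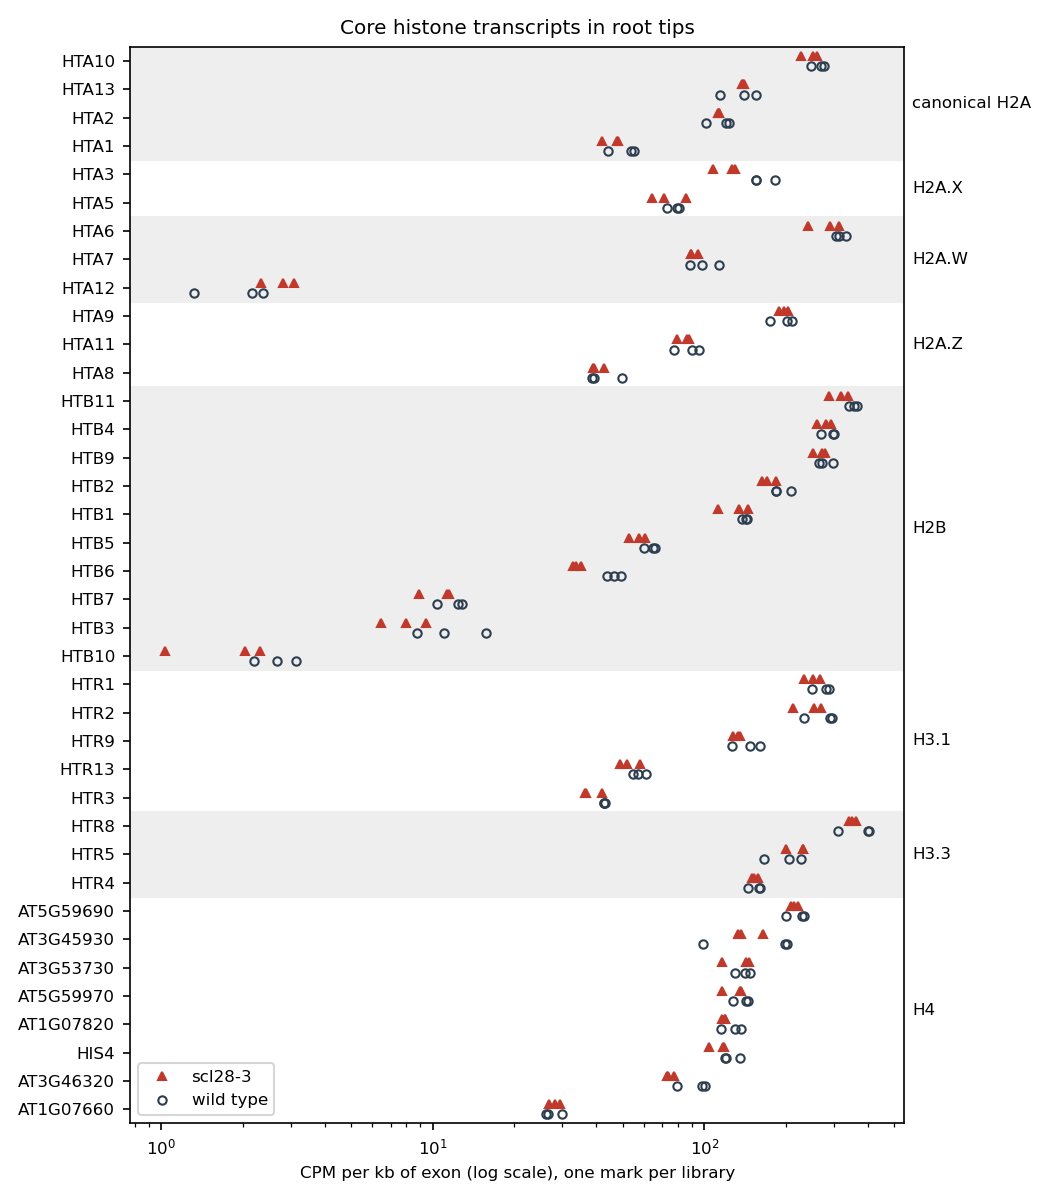
Transcript level of each core histone gene in CPM per kb of exon (horizontal log axis), with 1 mark per library, red triangles for scl28-3 and open circles for wild type, grouped by class. Levels run from 1.79 CPM per kb (HTB10, scl28-3 mean) to 372 (HTR8, wild-type mean), while within most genes the 2 genotypes lie close together.

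Among the 4 canonical H2A genes, whose proteins are the bulk H2A of dividing cells, HTA10 had the highest transcript level. Its level was 246 ± 16.8 CPM per kb of exon in scl28-3 and 264 ± 15.2 in wild type (SD, n = 3 each), above HTA13, HTA2 and HTA1 in both genotypes. HTA10 had 217.47, 211.12 and 190.51 CPM in scl28-3, against 207.37, 225.67 and 232 CPM in wild type. The genotypes overlapped, and the log2 fold change was -0.12 ± 0.09 (SE). HTA13 had a log2 fold change of 0.02 ± 0.12, the only canonical H2A gene above 0, and the class median was -0.08, or -0.03 without wild-type library 2. HTA13 and HTA2 differed in level by less than their spread in wild type, with 136 ± 21 and 115 ± 11.9 CPM per kb, while in scl28-3 they had 139 ± 1.02 and 113 ± 0.378 CPM per kb and did not overlap.

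Of the H2A classes H2A.X had the lowest median log2 fold change, -0.27, with HTA3 further from 0 than HTA5. These 2 genes encode proteins that differ at 2 residues, the H2A form that is phosphorylated around DNA breaks. HTA3 (AT1G54690, chromosome 1, 20414316 to 20415287, minus strand) had 104.31, 101.06 and 86.23 CPM in scl28-3, against 145.25, 123.75 and 123.98 CPM in wild type. Every scl28-3 library lay below every wild-type library. The log2 fold change was -0.45 ± 0.11 (SE), a fold of 0.733 with a 95% interval of 0.618 to 0.870. The unadjusted p = 0.00248 gave an adjusted p = 0.75 in the main limma fit. Over all alternatives the adjusted p ran from 0.0205, in the limma fit with a replicate block, to 1. HTA5 had 94.73, 78.33 and 70.97 CPM in scl28-3, against 80.18, 89.13 and 87.66 CPM in wild type, which overlapped, with a log2 fold change of -0.10 ± 0.12. HTA3 shares 259 bases with AT1G54680 on the opposite strand, which had 1, 1.55 and 1.67 CPM in scl28-3, against 0.35, 0.87 and 0.61 CPM in wild type. Whether counting used the strand is not given in the sources used here. Summed over HTA3 and HTA5, H2A.X had 199.04, 179.39 and 157.2 CPM in scl28-3, against 225.43, 212.88 and 211.64 CPM in wild type. The sum was 17.6% lower, without overlap.

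Levels of the other H2A variants overlapped between genotypes. HTA6, the leading H2A.W gene, had 243.26, 226.26 and 187.65 CPM in scl28-3, against 244.87, 259.41 and 238.32 CPM in wild type, with a log2 fold change of -0.20 ± 0.11 that was -0.09 without scl28-3 library 3. Its level per kb, 281 ± 36.5 in scl28-3 and 317 ± 13.8 in wild type, was the highest mean of the H2A family, although in scl28-3 its libraries overlapped those of HTA10. HTA7, a second H2A.W gene, stood at -0.14 ± 0.10. HTA12 had a log2 fold change of 0.44 ± 0.21, the highest of the 38, at only 4.12 ± 0.581 CPM in scl28-3 and 2.93 ± 0.832 CPM in wild type. HTB10, an H2B gene, lies wholly within HTA12 on the opposite strand over 522 bases. It had 0.937 ± 0.352 CPM in scl28-3 and 1.4 ± 0.245 CPM in wild type. If counting ignored the strand, reads of the pair may be mixed or lost.

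The H2A.Z genes, whose product sits near gene starts and in gene bodies, had log2 fold changes close to 0. HTA9, the leading one, had 158.75, 165.8 and 170.91 CPM in scl28-3, against 146.63, 169.51 and 176.46 CPM in wild type. The log2 fold change was -0.01 ± 0.09, with a 95% interval from -0.21 to 0.20, and its sign turned without TMM factors and on leaving out scl28-3 library 1, wild-type library 2 or wild-type library 3. HTA11 and HTA8 stood at -0.07 ± 0.10 and -0.09 ± 0.12. The class median was -0.07, and 0.03 without wild-type library 2.

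All 10 H2B genes had a log2 fold change below 0, with a median of -0.18 and a range from -0.54 to -0.08. Unlike H3.1 and H4, each of the 10 genes encodes a different protein by the reference annotation. HTB6 (AT3G53650, chromosome 3, 19889297 to 19890251, plus strand) had the lowest p of all histone genes. It had 33.65, 31.25 and 32.18 CPM in scl28-3, against 44.5, 42.02 and 47.12 CPM in wild type. The genotypes were far apart relative to their spread, with means of 32.4 ± 1.21 and 44.6 ± 2.55 CPM (SD, n = 3 each). The log2 fold change was -0.47 ± 0.09 (SE), a fold of 0.721 with a 95% interval of 0.629 to 0.826, and the unadjusted p = 0.000354 gave a limma adjusted p = 0.300. With DESeq2 the adjusted p of HTB6 was 0.0574. Over all alternatives its log2 fold change ran from -0.51 to -0.45, and its adjusted p from 0.0288, with a limma replicate block, to 1.

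The highly expressed H2B genes differed less than HTB6. HTB11, the leading H2B gene at 315 ± 25.1 CPM per kb in scl28-3 and 354 ± 12.8 in wild type, had 253.05, 238.15 and 215.78 CPM in scl28-3, against 254.46, 266.72 and 273.33 CPM in wild type. Although the values did not overlap, scl28-3 library 1 and wild-type library 1 nearly met, and the log2 fold change was -0.19 ± 0.09 with a limma adjusted p = 0.995. HTB2 had 143.81, 154.9 and 138.31 CPM in scl28-3, against 155.27, 156.05 and 176.81 CPM in wild type. Its genotypes were also separated by a narrow gap, with a log2 fold change of -0.18 ± 0.09 and a limma adjusted p = 0.995. HTB4 and HTB9, which encode proteins 97.3% identical, overlapped between genotypes and stood at -0.08 ± 0.09 and -0.08 ± 0.09.

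HTB3 had few reads and an unadjusted p = 0.0299. It had 9.43, 7.95 and 6.44 CPM in scl28-3, against 15.73, 8.75 and 10.97 CPM in wild type, and the genotypes overlapped. The log2 fold change was -0.54 ± 0.21, and -0.32 without wild-type library 1. The remaining genes were HTB1 and HTB5, at -0.14 and -0.18, and the low HTB7 and HTB10, at -0.18 and -0.44, all with overlap. Summed per kb over the 10 genes, H2B had 1336, 1301 and 1179 CPM per kb in scl28-3, against 1342, 1381 and 1450 in wild type. These did not overlap, by a small margin. The plain CPM sums, 1207.45, 1172.97 and 1065.9 in scl28-3 and 1203.7, 1249.28 and 1302.59 in wild type, did overlap.

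**Figure D3:**
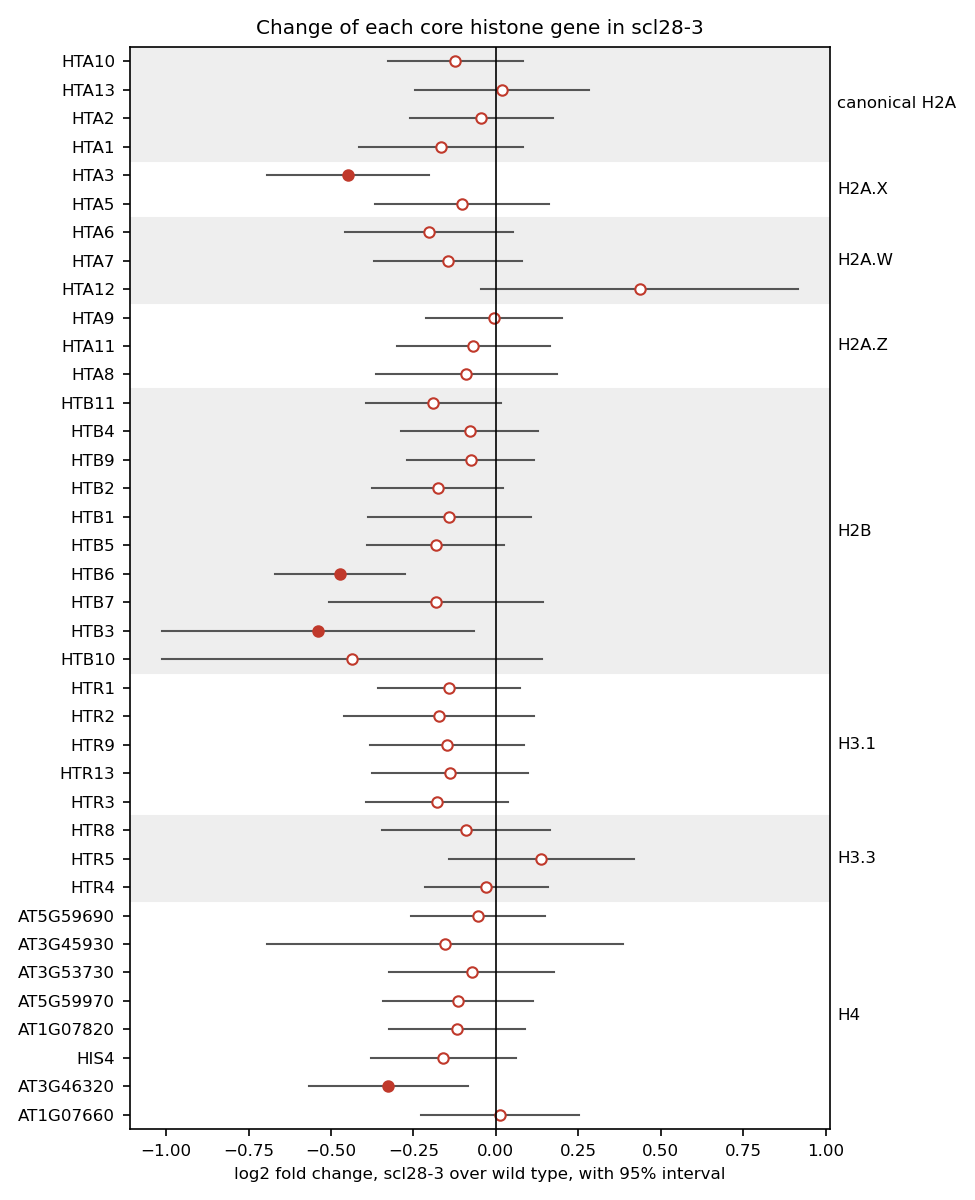
Log2 fold change of each core histone gene, scl28-3 over wild type (points, horizontal axis), with its 95% interval from the limma fit (lines), grouped by class. Filled points mark HTA3, HTB6, HTB3 and AT3G46320, whose unadjusted p was under 0.05, and points lie left of 0 for 34 of 38 genes, though HTA9 crosses 0 without TMM factors.

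The 5 H3.1 genes, which supply the H3 laid down at the replication fork, had nearly the same log2 fold change, from -0.18 to -0.14, and their median of -0.15 was -0.09 without wild-type library 2. They encode 1 identical protein, and none has an intron in the annotated transcript with its longest coding sequence. HTR1, at 250 ± 16.5 CPM per kb in scl28-3 and 273 ± 20.4 in wild type, had 181.61, 192.69 and 168.82 CPM in scl28-3, against 180.5, 207.97 and 203.57 CPM in wild type. It overlapped between genotypes, with a log2 fold change of -0.14 ± 0.10. HTR1 and HTR2, at 245 ± 29.8 CPM per kb in scl28-3 and 273 ± 35.4 in wild type, differed in level by less than their spread and shared the top of the class, and HTR9, HTR13 and HTR3 followed in that order in both genotypes. HTR3 was the only H3.1 gene without overlap, with 34.94, 30.33 and 30.51 CPM in scl28-3, against 35.94, 35.48 and 35.54 CPM in wild type, a log2 fold change of -0.18 ± 0.10 and a limma adjusted p = 0.995. HTR3 shares 328 bases with SDH2-1 on the same strand, which had 206 ± 13.4 CPM in scl28-3 and 216 ± 10.5 CPM in wild type, so reads of that stretch are of uncertain origin.

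Of the 3 H3.3 genes, which supply H3 outside replication, HTR8 and HTR4 had a log2 fold change below 0 and HTR5 above it, and the difference between H3.1 and H3.3 genes was not tested gene by gene. HTR8 had the highest level per kb of exon in the whole H3 family. Its values were 286.77, 297.05 and 277.93 CPM in scl28-3, against 253.34, 327.97 and 330.98 CPM in wild type. Wild-type library 1 lay below all 3 mutant libraries while the other two lay above them, and the log2 fold change was -0.09 ± 0.11. HTR5 had 302.06, 347.93 and 348.37 CPM in scl28-3, against 250.06, 341.91 and 309.39 CPM in wild type, with a log2 fold change of 0.14 ± 0.13 and overlap. HTR4, whose annotated start lies 42 bases beyond the end of HTR5 on the same strand, stood at -0.03 ± 0.08. The class median was -0.03, and 0.0046 without wild-type library 2.

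Every scl28-3 library had a lower balance of H3.1 to H3.3 transcript than every wild-type library. The ratio of the sums per kb was 1.04, 1.02 and 0.914 in scl28-3, against 1.14, 1.08 and 1.06 in wild type. The genotypes did not overlap, with means of 0.992 ± 0.0681 and 1.09 ± 0.0434 (SD, n = 3 each), a ratio of 0.906 that ran from 0.884 to 0.942 when each library was left out. As a share of H3 transcript per kb, H3.1 made up 49.8 ± 1.75% in scl28-3 and 52.2 ± 0.981% in wild type. The gap of 1.06 to 1.04 between the nearest libraries was smaller than the spread within either genotype. Within a genotype the ratio was lowest in the library with the highest endodermis marker level. The 7 endodermis markers (CASP1 to CASP5, ESB1 and MYB36), of which none is at 0, summed to 245.78, 249.34 and 374.41 CPM in scl28-3, against 122.09, 235.47 and 314.58 CPM in wild type. The root hair markers summed to 327.71, 335.62 and 400.56 CPM in scl28-3, against 296.29, 273.15 and 342.3 CPM in wild type. All 7 genes of each list had a log2 fold change above 0, against 9307 of all 17879 tested genes. The medians were 0.47 for endodermis and 0.14 for root hair, with median standard errors of 0.32 and 0.16. In the main limma fit 0 were called in each list. In each, 1 was higher at an unadjusted limma p under 0.05, against 2.2% of all genes. Of the 7 root meristem markers, 4 had a log2 fold change above 0 and 3 below 0, with a median of 0.02. The part of all these markers in the ratio and in the direction of the histone genes was not tested.

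**Figure D4:**
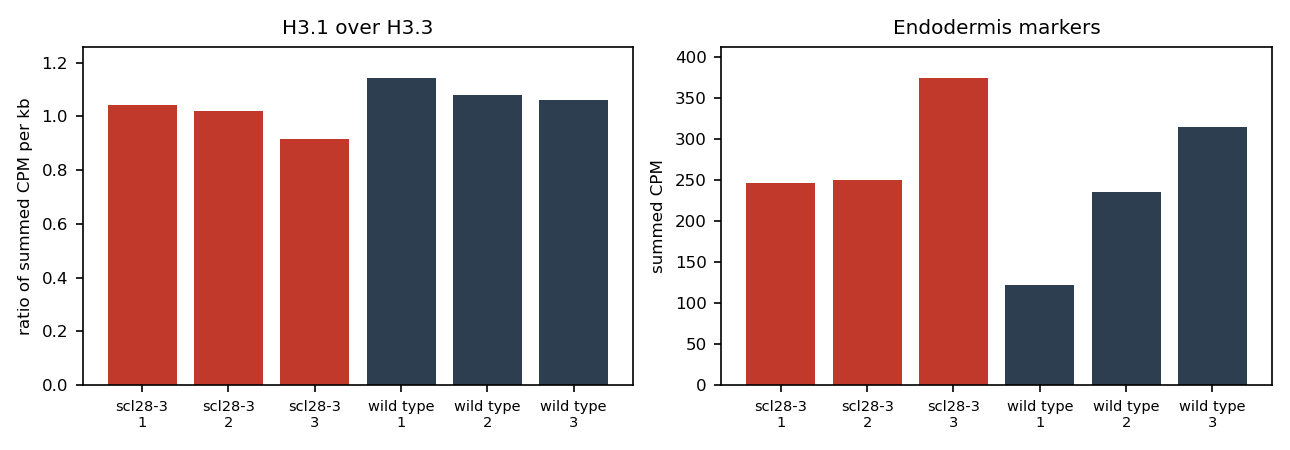
Ratio of summed H3.1 to summed H3.3 transcript per kb (left, bars from 0) and summed CPM of the 7 endodermis markers (right), 1 bar per library, scl28-3 in red and wild type in dark blue. The ratio was 1.04, 1.02 and 0.914 in scl28-3, against 1.14, 1.08 and 1.06 in wild type, and the marker sum was highest in scl28-3 library 3.

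Of the 8 H4 genes, 7 had a log2 fold change below 0, with a median of -0.12 that was -0.03 without wild-type library 2. All 8 encode 1 identical protein, and they are the histone genes whose sequence is least their own. Between 69.2% and 100% of the 50-base windows of their exons occur once in the nuclear reference genome, against at least 96.9% in the other classes, so reads may be split or lost among copies. AT5G59690, the leading gene, had 158.96, 164.54 and 155.59 CPM in scl28-3, against 148.27, 170.76 and 173.21 CPM in wild type, with overlap and a log2 fold change of -0.05 ± 0.09. HIS4 (AT2G28740) had 83.8, 84.66 and 74.19 CPM in scl28-3, against 96.34, 86.25 and 84.94 CPM in wild type. The gap between its nearest libraries was 84.66 to 84.94 CPM, with a log2 fold change of -0.16 ± 0.10 and a limma adjusted p = 0.995. AT1G07660, at 0.01 ± 0.11, was the 1 H4 gene above 0.

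A closely related pair on chromosome 3 held both the clearest H4 difference and the most variable H4 gene. AT3G46320 (chromosome 3, 17019785 to 17020428, minus strand) had 46.87, 49.61 and 47.14 CPM in scl28-3, against 51.07, 63.07 and 64.84 CPM in wild type. The genotypes did not overlap, and the log2 fold change was -0.33 ± 0.11, with an unadjusted p = 0.0131 and a limma adjusted p = 0.995. Its relative AT3G45930, shown because of this pair and chosen after its values were seen, had 114.31, 94.44 and 92.01 CPM in scl28-3, against 68.43, 137.5 and 140.22 CPM in wild type. Here wild-type library 1 had less than any mutant library and the other wild-type libraries had more, and the log2 fold change was -0.15 ± 0.24. The coding sequences are 97.4% identical, and the 100 bases before the start differ at 2 positions, shown in capitals.
AT3G45930: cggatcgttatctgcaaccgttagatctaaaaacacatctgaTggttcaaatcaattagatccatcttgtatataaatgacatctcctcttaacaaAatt
AT3G46320: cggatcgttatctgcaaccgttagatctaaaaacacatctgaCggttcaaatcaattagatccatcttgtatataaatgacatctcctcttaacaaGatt
These are chr3:16883216-16883315 on the plus strand and chr3:17020429-17020528 on the minus strand. In AT3G45930 74.3% of the 50-base windows are unique and in AT3G46320 72.1%. Summing both genes removes any split between them but does not restore reads lost among copies. The sums were 161.18, 144.05 and 139.15 CPM in scl28-3, against 119.5, 200.57 and 205.06 CPM in wild type. The sums overlapped.

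Summed by kind, the core histones of the genotypes overlapped. All 38 genes together had 4612.57, 4646.39 and 4278.26 CPM in scl28-3, against 4409.49, 5036.18 and 5001.96 CPM in wild type. The means were 4512 ± 203 CPM in scl28-3 and 4816 ± 352 CPM in wild type (SD, n = 3 each), a difference smaller than the SD in wild type. The replication-dependent genes had 1804.79, 1829.32 and 1652.93 CPM in scl28-3, against 1692.66, 2023.32 and 1978.76 CPM in wild type. The variant genes had 1600.33, 1644.1 and 1559.43 CPM in scl28-3, against 1513.13, 1763.58 and 1720.61 CPM in wild type. Both kinds overlapped, and so did their ratio, 1.13, 1.11 and 1.06 in scl28-3 and 1.12, 1.147 and 1.150 in wild type. By gene, 15 of 17 replication-dependent and 9 of 11 variant genes had a log2 fold change below 0, with medians of -0.14 and -0.09, and without wild-type library 2 these medians were -0.07 and 0.0046. The ratio over all classes therefore did not separate the genotypes. The ratio within H3 did, by a gap smaller than the spread within either genotype, and HTR5 was the only H3.3 gene whose share did not overlap.

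**Figure D5:**
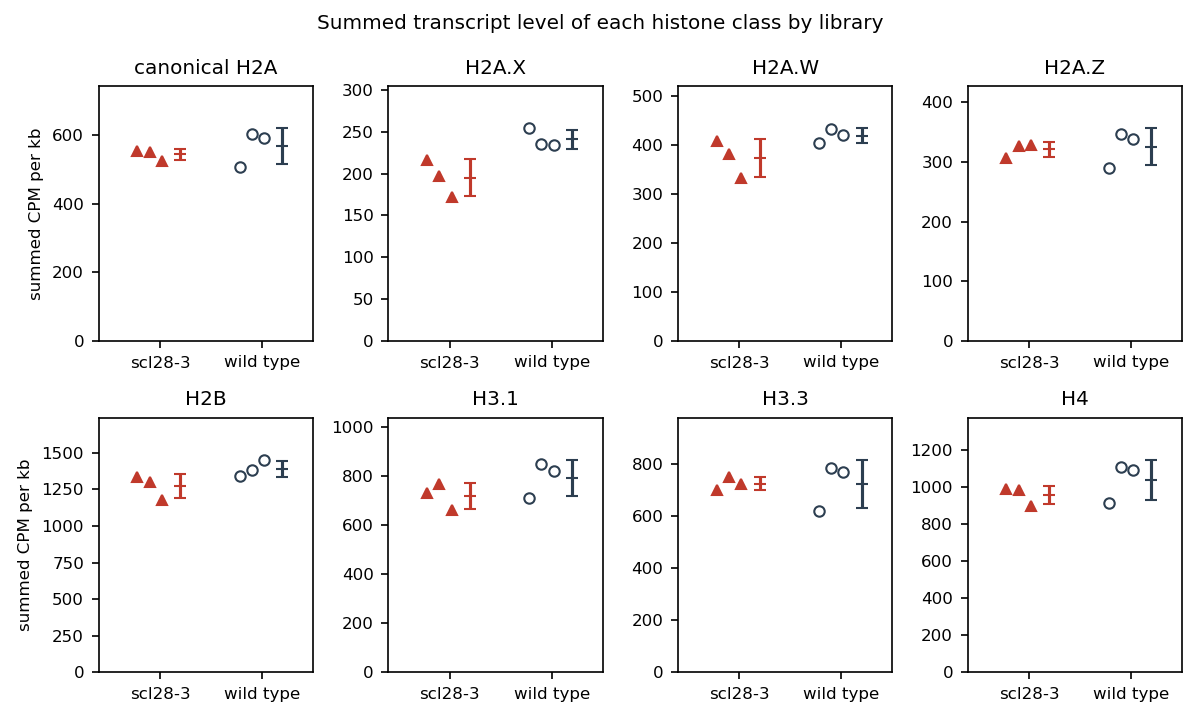
Summed level of each histone class in CPM per kb (vertical axes from 0), red triangles for the 3 scl28-3 libraries in replicate order, open circles for the 3 wild-type libraries, and bars for the mean ± SD beside them. H2A.X and H2B are the classes whose genotypes do not overlap, H2B by a small margin (1336 in scl28-3 library 1 against 1342 in wild-type library 1).

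The lowest and highest values were unevenly spread over the libraries. Of the 38 genes, 17 had their lowest CPM in scl28-3 library 3 and 14 in wild-type library 1, while 16 had their highest in wild-type library 2 and 13 in wild-type library 3. Library 3 of scl28-3 also had the highest endodermis marker sum and the deepest sequencing, and wild-type library 1 the lowest endodermis sum. The part of these differences in the histone values was not tested.

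Of the genes that work with the core histones, none was called in the main limma fit. Among 10 other core and linker histone genes, 7 had a row and 4 were tested. Of these 4, 3 had a log2 fold change below 0, against 47.9% of all tested genes. With limma 0 were called or had an unadjusted p under 0.05. HTR11, a further H3 gene, stood at -0.17 ± 0.15 and CENH3, the centromeric H3, at -0.12 ± 0.12. Among 23 histone chaperones and exchange factors, 15 were below 0, against 47.9% of all tested genes, with a median of -0.02. None was called in the main limma fit or with edgeR or DESeq2. With an unadjusted limma p under 0.05 there was 1 of 23, a share near the 4.37% of all genes. FAS2, a subunit of the CAF-1 complex that deposits H3.1 and H4 at replication, had 8.5, 8.8 and 7.57 CPM in scl28-3, against 12.18, 10.77 and 10.09 CPM in wild type, without overlap. Its log2 fold change was -0.41 ± 0.13, with an unadjusted p = 0.0116 and a limma adjusted p = 0.995. ATRX, which takes part in H3.3 deposition, stood at 0.13 ± 0.11.

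Among 16 genes of DNA replication and S phase, 12 were below 0, against 47.9% of all tested genes, with a median of -0.07. None was called in the main limma fit or with edgeR. With DESeq2 1 was called, TSO2, against 0.101% of all genes. TSO2 was also the 1 gene of 16 with an unadjusted limma p under 0.05, against 4.37% of all genes. TSO2, a small subunit of ribonucleotide reductase, which makes the deoxyribonucleotides for DNA synthesis, had 107.24, 110.98 and 115.07 CPM in scl28-3, against 147.06, 151.92 and 167.16 CPM in wild type. The genotypes were well separated, and the log2 fold change was -0.50 ± 0.08 with a limma adjusted p = 0.171 that ran from 0.000806 with DESeq2 to 1 over all alternatives. PCNA1, the replication clamp, stood at -0.20 ± 0.11. The MCM helicase genes and the other replication genes of the list overlapped between genotypes.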

How the data were processed

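RNA-seq of 3 scl28-3 and 3 wild-type root tip samples was used. The build named by the submitters' processing notes is TAIR10, and the tools they name are HTSeq 0.6.1p1, HISAT2 2.0.0 and edgeR. The strand setting of the counting is not given in the sources used here. Values deposited by the authors are CPM with 2 decimals, per the file headers. In each library 100% of values were, within 0.1 read, whole multiples of what 1 read is worth, and were turned into reads.

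CPM divided by TMM factors (edgeR 4.0.16) was tested as log2(CPM + 0.5) with limma 3.58.1 (intensity trend, R 4.3.3) over the 17879 genes kept by filterByExpr (minimum count of 10). P-values are two-sided and adjusted by Benjamini-Hochberg over all of them. The fold scale understates changes of low genes. Alternatives were pseudocounts of 0.1, 1 and 2, other filters and scalings, edgeR's quasi-likelihood test (14 genes called) and DESeq2 1.42.0 on recovered reads, a replicate block, and leaving out each library. The fit was tested on simulated data.

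Levels per kb used exon lengths of TAIR10.1, from which promoters were also read. Proteins were translated from its coding sequences. Genes named were the highest per kb in each class, those with an unadjusted p under 0.05, those without overlap, and up to 2 per further list. The members and lists were chosen with earlier results of these data known.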

Additional observations from a re-analysis of the deposited data

How the results depend on the processing

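Across 16 alternatives the count of histone genes called higher was 0, and the count called lower was 0 except under a replicate block by sample number, where 2 were called, HTA3 (adjusted p = 0.0205) and HTB6 (adjusted p = 0.0288), against 40 of all genes (0.224%). No pairing by number could be shown, the correlations between libraries of equal number being 0.44, 0.04 and 0.50, although every library except wild-type library 2 correlated best with its own number. With the block 9 histone genes were lower at an unadjusted p under 0.05, against 5.01% of all genes, and the count ran from 3 to 14 when each library was left out. With the block 64 of all genes were called, and 5 to 18 when each library was left out. HTA9 had a log2 fold change of 0.0121 without TMM factors, which also left 33 histone genes and 42.7% of all genes below 0. When each library was left out, HTA9 ran from -0.0901 to 0.0332, the H2A.Z median from -0.156 to 0.0332, the H3.3 median from -0.0816 to 0.00460 and the median of the variant genes from -0.156 to 0.00460. TSO2 was called with DESeq2 (adjusted p = 0.000806), the block (0.00649) and without wild-type library 1 (0.0381). The cause of these differences was not tested. SCL28 was called in every fit, from -1.59 to -1.40. With 3 libraries per genotype and 10400345 to 16781230 reads, changes of the size seen here, mostly under 0.2 on the log2 scale, are near the standard errors, and HTB10 and HTA12 rest on few reads.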
